A study of Rattus norvegicus with 8 samples.

Results

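The genes described here are targets of p53, the stress-activated transcription factor, in retinal cells of newborn rats given a plasmid encoding Klf4 or a control plasmid. Members were taken from a fixed list of 31 rat symbols and were located on the array through probes whose RefSeq transcript accession belongs to a listed symbol, among 16581 genes with a symbol in all. No measured value was used to match probes, but the list was chosen with earlier results of these data known. Of the 31 genes, 28 had at least 1 probe and 27 passed the filter on dim probes, which kept probes called well above background by 3 or more of the 4 arrays in either group. Sesn1, Tnfrsf10b and Eda2r were not matched to a probe and were not analysed here. Pmaip1, which encodes the death inducer Noxa, had 1 probe that was well above background on 0 of 8 arrays and was not tested.

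The study compared 4 arrays of cells electroporated with a plasmid encoding Klf4, a zinc-finger transcription factor, with 4 arrays of cells given a control plasmid. All cells came from Lister hooded rat retinas taken at postnatal day 0, electroporated in vitro, cultured as explants for 39 hours, dissociated and sorted for GFP, so that both groups hold cells that had taken up plasmid. The arrays were numbered 2 to 5 in each group, and the labels do not state whether the arrays hold RNA of different animals or of separate electroporations. P-values therefore measure the spread between these arrays, and that spread may be technical. Which promoter drives the plasmids, and in which cell types, is not stated in the labels.

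p53 is kept scarce by the ubiquitin ligase Mdm2 and its relative Mdm4, and is stabilised after DNA damage and other stress. It then binds response elements near its target genes, whose products halt the cell cycle, repair DNA, trigger programmed cell death or restrain p53 itself. In the developing retina a share of the newly formed cells is removed by programmed cell death, and several of these targets are also switched on by other transcription factors and by growth or stress signals.

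The arrays differed in brightness and came from 2 scans of 1 slide, per the file headers. The 75th percentile of the probe signals lay between 787 and 1564 on the Klf4 arrays and between 732 and 1718 on the control arrays, and well above background were 72.1% to 86.5% of gene spots on the Klf4 arrays and 75.2% to 86.4% on the control arrays. Both arrays numbered 5 were in the second scan, both arrays numbered 4 were outside the quality limits of the scanner software, and all Klf4 arrays lay in slide columns 2 and 4 against columns 1 and 3 for the controls, so slide column and group cannot be told apart. The Klf4 probe averaged -3.0 ± 0.86 in the Klf4 group and -3.27 ± 0.62 in the control group (SD, n = 4 each), a difference of 0.27 (SE 0.46, limma adjusted p = 0.916). Whether this probe lies within the plasmid's insert is not known, and it cannot serve as a check of the labels. All 12 of 12 retina markers were well above background on all 8 arrays.

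Of the 27 genes tested, 4 rose with Klf4, 1 fell and 22 did not pass the threshold, a Benjamini-Hochberg adjusted p under 0.05 over all features in limma. The 4 that rose, Perp, Fas, Phlda3 and Epha2, all belong to the death group, and the 1 that fell, Plk2, to the arrest group. The members called higher were 14.8% of those tested, against a background of 3.20% of all 29988 features, and those called lower 3.70%, against 0.467% (3.67% of all features in either direction). All members have a symbol, and of the 13595 tested features with a symbol 620 were higher and 86 lower, larger shares than over all features. Fas passed the filter through the Klf4 group alone, where it was high, so its call is partly set by the filter; without it 3 of 26 genes rose (11.5%), 3 of 10 in the death group. The median log2 difference, Klf4 minus control, was 0.02 over the 27 genes and -0.07 over all features, with 16 genes above 0 and 11 below. All values are normalised log2 signals, that is log2 of the array signal less that array's 75th percentile, and are compared only within a gene. In RNA from sorted populations, fewer cells of a type and less RNA per cell cannot be told apart.

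**Figure D1:**
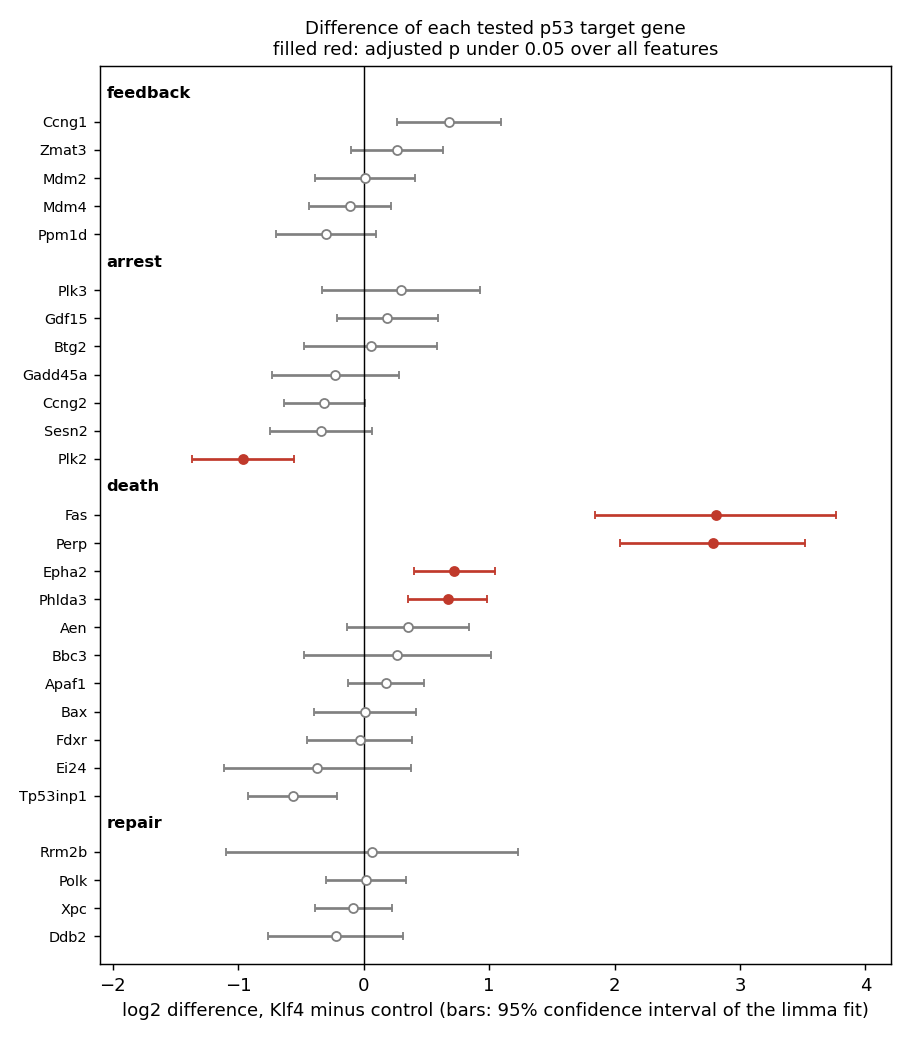
Log2 difference of each tested p53 target gene, Klf4 minus control (horizontal axis), with the 95% confidence interval of the limma fit and the genes grouped by role. Fas, Perp, Epha2 and Phlda3 lie to the right of 0 and Plk2 to its left with filled red points (adjusted p under 0.05), and the other 22 points are open.

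The death group held the only rises among the members, 4 of the 11 tested (36.4%, against 3.20% of all features), or 3 of 10 without Fas. It had 0 lower, a median log2 difference of 0.27 and a range from -0.57 to 2.81. The role groups are among the lists chosen with earlier results of these data known. Perp encodes a tetraspan membrane protein that is both a p53 target in dying cells and a component of desmosomes, the junctions of epithelial cells. Its normalised log2 signal was -0.05, -0.83, -1.38 and 0.10 on Klf4 replicates 2, 3, 4 and 5, against -3.23, -3.23, -3.17 and -3.67 on control replicates 2, 3, 4 and 5. The lowest Klf4 array lay well above the highest control array. Perp rose by 2.78 on the log2 scale, or 6.88-fold (SE 0.32, limma adjusted p = 0.00191), with a difference of 2.46 within the first scan and 3.77 within the second, which held 1 array per group. It passed the threshold in 22 of 22 alternative settings, in which its log2 difference ranged from 2.22 to 3.12.

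Fas encodes the receptor through which Fas ligand starts programmed cell death. Its signal was -4.94, -5.21, -6.07 and -4.18 on Klf4 replicates 2, 3, 4 and 5, against -8.48, -8.31, -7.52 and -7.31 on control replicates 2, 3, 4 and 5. The groups did not overlap, but with Klf4 the probe was well above background on 3 arrays and in controls on 0 arrays, and it passed the filter through the Klf4 group alone. The control level is therefore not known. The Klf4 mean was -5.1 ± 0.78 and the control group was measured at -7.9 ± 0.57 (SD, n = 4 each). With controls held at the lowest signal that was well above background, Fas was 1.94-fold higher with Klf4. That fold is not a strict minimum, because the Klf4 mean includes an array on which the probe was not well above background. The fitted difference of 2.81 (SE 0.42, limma adjusted p = 0.00724) takes the dim control signals as measured. A second Fas probe, which did not pass the filter, averaged -5.67 ± 0.77 in the Klf4 group and -6.97 ± 0.26 in the control group (SD, n = 4 each), a smaller difference of 1.29 in the same direction. With normexp background correction the difference was 0.62 and the call was lost (adjusted p = 0.395), as it was with no filter on dim probes, where the second probe stands for the gene (adjusted p = 0.188).

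Phlda3 and Epha2 showed smaller rises. Phlda3, which encodes a pleckstrin-homology protein that restrains the survival kinase Akt, had signals of -1.79, -2.04, -2.18 and -2.08 on Klf4 replicates 2 to 5, against -2.89, -2.57, -2.7 and -2.61 on control replicates 2 to 5. It rose by 0.67 (SE 0.14, limma adjusted p = 0.0339), or 1.59-fold, with 0.72 within the first scan and 0.53 within the second. Epha2, an ephrin receptor tyrosine kinase of epithelial and progenitor cells, had signals of 2.82, 2.69, 2.54 and 2.95 on Klf4 replicates 2 to 5, against 1.93, 1.92, 2.04 and 2.23 on control replicates 2 to 5. It rose by 0.72 (SE 0.14, limma adjusted p = 0.0271), or 1.65-fold, with 0.72 in both scans. For both genes every Klf4 array lay above every control array, yet the calls did not hold throughout, and Phlda3 passed in 9 and Epha2 in 13 of 22 alternatives. Phlda3 lost its call with the 75th percentile over spots (adjusted p = 0.0922), normexp (0.0931), no filter (0.0726), the replicate number as a block (0.0976), the first scan alone (0.101) and both arrays numbered 4 left out (0.0707), and when any single array other than Klf4 replicate 4 was left out (0.0549 to 0.123). Epha2 lost it over spots (adjusted p = 0.0671), with no filter (0.0587), within the first scan (0.0509) and when any array other than control replicate 5 or Klf4 replicate 4 was left out (adjusted p 0.0738 to 0.106). On Klf4 replicate 4 all 4 rising genes had their lowest value of the Klf4 group.

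The other death genes did not pass. Tp53inp1, which encodes a stress-induced nuclear protein linked to cell death and autophagy, had signals of -1.31, -1.36, -1.68 and -1.33 on Klf4 replicates 2 to 5, against -0.57, -1.08, -0.94 and -0.82 on control replicates 2 to 5. Its groups did not overlap and it lay lower with Klf4, by -0.57 with a 95% confidence interval of -0.93 to -0.21 (limma adjusted p = 0.118). Aen, which encodes an apoptosis-enhancing nuclease, had signals of 2.33, 2.82, 2.73 and 2.79 on Klf4 replicates 2 to 5, against 1.90, 2.22, 2.32 and 2.82 on control replicates 2 to 5. Control replicate 5 lay within the range of the Klf4 arrays, and the difference was 0.35 (interval -0.13 to 0.84, limma adjusted p = 0.628). The direct mediators of mitochondrial death gave small differences: Bax, whose product permeabilises mitochondria, was at 0.01 (interval -0.40 to 0.42), and Apaf1, the scaffold of the apoptosome, at 0.18 (-0.13 to 0.48) with the probe used and at -0.11 with its other probe. Bbc3, which encodes the death activator Puma, was at 0.27 with a wide interval of -0.48 to 1.01, and its highest value, 0.63, was that of control replicate 5. Fdxr, a mitochondrial ferredoxin reductase, was at -0.03 (-0.45 to 0.39). Ei24, an endoplasmic reticulum protein, was at -0.37 (-1.12 to 0.38). Its signal on Klf4 replicate 4 was -2.33, against -1.03 to -0.73 on the other Klf4 arrays and -0.91 to -0.86 on the controls.

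The promoters of the genes that passed are shown because they hold, or lack, the letters that p53 and KLF proteins are known to read. Windows of 250 bases before to 50 bases after each start were taken from RefSeq (build GRCr8), in which 24 of the 31 members had an entry. Capitals mark matches to the KLF box CACNCCC on either strand, or to the p53 response element. That element was searched for as 2 adjacent decamers without a spacer, with their central letters exact and up to 3 mismatches elsewhere. Aen is added as the tested member whose window holds a full p53 element. The 6 windows lie on the plus strand, at chr1:15361534-15361833 for Perp, chr1:241211905-241212204 for Fas, chr13:49744753-49745052 for Phlda3, chr5:158888379-158888678 for Epha2, chr2:43702286-43702585 for Plk2 and chr1:142224283-142224582 for Aen.
Perp: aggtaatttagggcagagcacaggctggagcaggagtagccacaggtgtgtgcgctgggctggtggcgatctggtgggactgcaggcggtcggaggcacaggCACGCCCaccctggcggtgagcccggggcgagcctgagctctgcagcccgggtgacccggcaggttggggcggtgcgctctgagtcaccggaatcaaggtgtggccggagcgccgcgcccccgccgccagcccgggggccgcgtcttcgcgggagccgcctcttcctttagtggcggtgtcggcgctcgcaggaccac
Fas: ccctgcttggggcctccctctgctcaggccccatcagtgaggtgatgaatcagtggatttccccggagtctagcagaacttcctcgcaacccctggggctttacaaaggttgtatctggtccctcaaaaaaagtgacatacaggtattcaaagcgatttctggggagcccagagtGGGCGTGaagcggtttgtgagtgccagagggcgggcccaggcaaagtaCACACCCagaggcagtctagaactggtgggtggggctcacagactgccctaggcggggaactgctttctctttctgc
Phlda3: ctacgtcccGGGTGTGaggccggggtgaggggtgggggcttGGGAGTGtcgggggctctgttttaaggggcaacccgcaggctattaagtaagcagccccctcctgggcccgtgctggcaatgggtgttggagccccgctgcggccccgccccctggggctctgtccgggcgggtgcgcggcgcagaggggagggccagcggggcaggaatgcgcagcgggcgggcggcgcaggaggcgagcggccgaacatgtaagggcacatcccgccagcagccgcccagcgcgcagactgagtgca
Epha2: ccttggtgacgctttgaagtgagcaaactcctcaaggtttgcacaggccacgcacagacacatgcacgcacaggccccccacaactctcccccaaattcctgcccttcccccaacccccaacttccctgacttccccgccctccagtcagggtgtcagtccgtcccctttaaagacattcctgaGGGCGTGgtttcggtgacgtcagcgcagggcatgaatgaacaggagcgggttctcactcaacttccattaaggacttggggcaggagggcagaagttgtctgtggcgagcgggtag
Plk2: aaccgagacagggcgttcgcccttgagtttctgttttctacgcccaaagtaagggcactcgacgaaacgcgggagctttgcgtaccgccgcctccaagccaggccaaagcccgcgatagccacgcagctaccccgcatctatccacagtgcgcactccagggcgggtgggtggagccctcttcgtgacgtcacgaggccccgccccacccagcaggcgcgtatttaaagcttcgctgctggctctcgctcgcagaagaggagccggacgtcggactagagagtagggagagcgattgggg
Aen: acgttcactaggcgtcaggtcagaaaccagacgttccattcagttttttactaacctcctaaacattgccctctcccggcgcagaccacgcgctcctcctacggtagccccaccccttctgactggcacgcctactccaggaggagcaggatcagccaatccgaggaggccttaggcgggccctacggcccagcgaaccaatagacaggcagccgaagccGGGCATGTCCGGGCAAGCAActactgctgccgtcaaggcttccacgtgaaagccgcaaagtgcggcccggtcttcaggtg
The KLF box occurred in the windows of 10 of the 24 members (41.7%) and in 26.3% of all 27457 promoters. Among the members with a window, it was in that of each of the 4 that rose, with 2 matches in Fas and in Phlda3 and 1 in Perp and in Epha2, not in that of Plk2, and in those of 6 of the 16 tested members that did not pass. A full p53 element occurred in 2 of the 24 windows (8.33%), those of Aen and Pmaip1, and in 0.608% of all promoters. None of the 5 windows of genes that passed the threshold held it, nor did they hold an exact single decamer, which was found in 5 of 24 members (20.8%) and in 7.89% of all promoters. These windows are short, and response elements of p53 targets are often in introns or farther upstream, so the letters describe these windows only. The split of KLF boxes by call rests on 4 rising genes of a list chosen with earlier results of these data known. The box consists mostly of G and C, which made up 56.7% (Fas) to 72.3% (Phlda3) of the windows of the rising genes and 63.0% of that of Plk2. Binding of Klf4 to these windows was not tested.

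In the arrest group 1 of 7 tested genes fell (14.3%, against 0.467% of all features), 0 rose, and the median log2 difference was -0.23. Plk2, a Polo-like kinase of stress checkpoints and of synapses, had signals of -1.30, -0.95, -1.16 and -1.27 on Klf4 replicates 2 to 5, against -0.15, -0.52, -0.35 and 0.19 on control replicates 2 to 5. Every Klf4 array lay below every control array. Plk2 fell by 0.96 on the log2 scale (SE 0.18, limma adjusted p = 0.0208), so that controls were 1.95-fold higher, and the difference was -0.80 within the first scan and -1.46 within the second. It passed in 15 of 22 alternatives, and not with the replicate number as a block (adjusted p = 0.077), within the first scan (0.0748), without both arrays numbered 4 (0.0724) or without control replicate 2 (0.0794), control replicate 4 (0.0553), Klf4 replicate 2 (0.083) or Klf4 replicate 5 (0.0694).

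Ccng2, which encodes an unconventional cyclin of resting and arrested cells, also showed no overlap, with 1.14, 1.33, 1.51 and 1.52 on Klf4 replicates 2 to 5, against 1.71, 1.58, 1.59 and 1.87 on control replicates 2 to 5. Its difference of -0.31 (interval -0.63 to 0.01) did not pass (limma adjusted p = 0.435). Sesn2, a sestrin that dampens growth signalling through mTOR, had -2.64, -2.91, -2.65 and -2.18 on Klf4 replicates 2 to 5, against -2.25, -2.38, -2.36 and -2.04 on control replicates 2 to 5, with overlapping groups and a difference of -0.34 (interval -0.74 to 0.07, limma adjusted p = 0.543). The remaining arrest genes overlapped between groups. Plk3, another Polo-like stress kinase, was at 0.30 (-0.33 to 0.93). Gdf15, a secreted stress cytokine, was at 0.19 (-0.21 to 0.59), Btg2, an antiproliferative factor that also marks neurogenic divisions, at 0.05 (-0.48 to 0.59), and Gadd45a, a growth arrest gene induced by DNA damage, at -0.23 (-0.73 to 0.28).

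The feedback genes, through which p53 limits itself, did not pass in any case with limma (5 tested, 1 with an unadjusted p under 0.05, median 0.01). Mdm2, the gene most directly tied to p53 activity, had a mean of 1.80 ± 0.32 in the Klf4 group and 1.79 ± 0.10 in the control group (SD, n = 4 each), and its difference of 0.01 had an interval of -0.39 to 0.41. Its values on the Klf4 arrays, 1.52 to 2.25, enclosed those on the control arrays, 1.69 to 1.93. Mdm4 was at -0.11 (interval -0.43 to 0.22) with the probe used and at -0.34 and -0.50 with its other probes. Ccng1, which encodes cyclin G1, a partner of the phosphatase that activates Mdm2, came nearest to the threshold. It had 2.10, 2.29, 2.73 and 2.26 on Klf4 replicates 2 to 5, against 1.33, 1.85, 1.73 and 1.77 on control replicates 2 to 5. The groups did not overlap, and the difference of 0.68 (interval 0.26 to 1.09, limma adjusted p = 0.105) passed the threshold with array weights (adjusted p = 0.0266) and in no other alternative. Ppm1d, a phosphatase that switches off p53 and its upstream kinases, had 2.21, 2.50, 2.94 and 2.32 on Klf4 replicates 2 to 5, against 2.81, 2.70, 2.75 and 2.91 on control replicates 2 to 5. All but Klf4 replicate 4 lay below the controls, and the difference was -0.30 (interval -0.70 to 0.10, limma adjusted p = 0.604). Zmat3, a zinc-finger protein that binds RNA, was at 0.26 (-0.10 to 0.63).

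The repair genes did not pass with limma either (4 tested, 0 with an unadjusted p under 0.05), and their median was -0.03. Ddb2, which recognises ultraviolet damage in DNA, had -1.46, -1.26, -0.44 and -0.95 on Klf4 replicates 2 to 5, against -0.99, -0.89, -0.89 and -0.44 on control replicates 2 to 5, with a difference of -0.22 (interval -0.76 to 0.32, limma adjusted p = 0.826). Xpc, its partner in damage recognition, had -0.07, -0.30, -0.24 and -0.42 on Klf4 replicates 2 to 5, against -0.06, -0.09, -0.16 and -0.39 on control replicates 2 to 5, with a difference of -0.08 (interval -0.39 to 0.23, limma adjusted p = 0.911). In both genes the groups overlapped. Polk, a DNA polymerase that copies past damage, was at 0.02 (-0.30 to 0.34). Rrm2b, a ribonucleotide reductase subunit that supplies DNA building blocks, was at 0.07 with the widest interval of the 27 genes, -1.10 to 1.23, and was well above background on 3 of 4 arrays in each group.

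**Figure D2:**
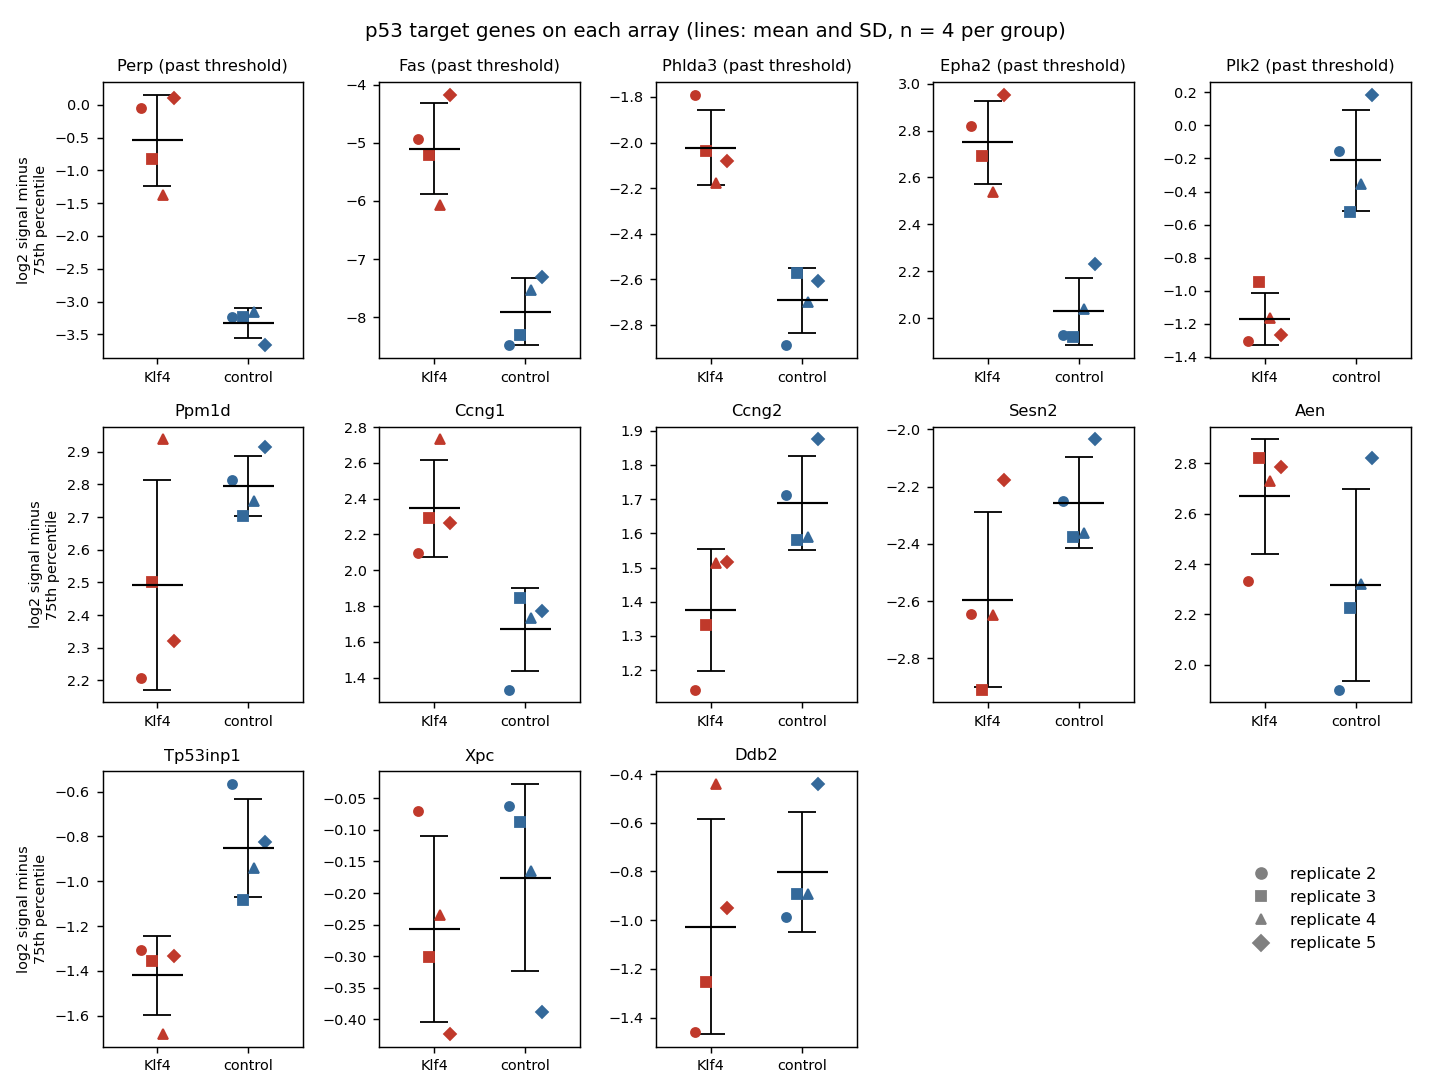
Normalised log2 signal (vertical axis, own scale for each gene) of the 5 p53 target genes past the threshold and of 8 others, 2 for each role with the lowest p among those not past it, on the 4 Klf4 arrays (red, left) and the 4 control arrays (blue, right). Marker shapes give the replicate number and black lines the mean and SD; the groups are apart in the top row and in Ccng1, Ccng2 and Tp53inp1.

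Across the 27 genes the groups were fully apart, with every Klf4 array higher, in 5 (18.5%, against 5.74% of all features) and, with every Klf4 array lower, in 3 (11.1%, against 4.48%). The first set was Perp, Fas, Phlda3, Epha2 and Ccng1, and the second was Plk2, Ccng2 and Tp53inp1. Fas passed the filter through the Klf4 group alone, so its place in the first set, and the share that counts it, are partly set by the filter. Klf4 replicate 4 had the highest value of its group in 12 genes and the lowest in 8. Among the controls, replicate 5, of the second scan, had the highest value in 18 genes and the lowest in 5, and its median deviation from the control mean was 0.19 over the 27 genes, against -0.02 over all features.

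**Figure D3:**
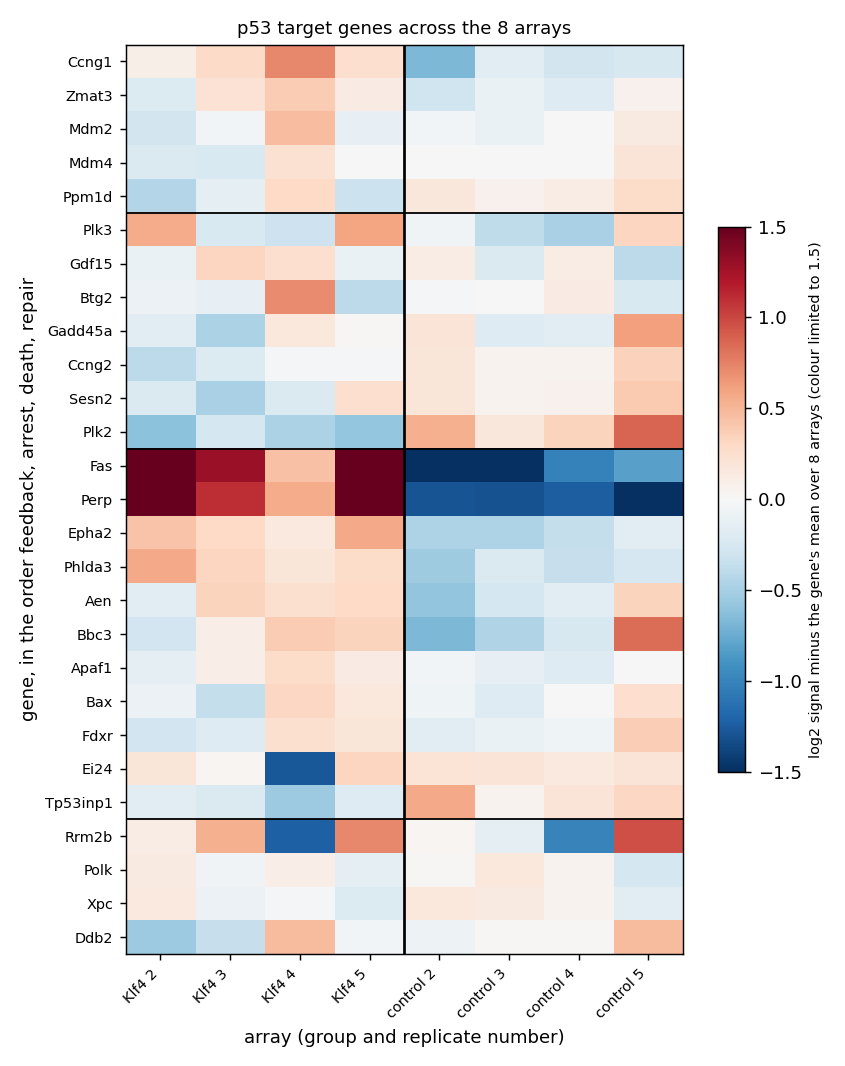
Normalised log2 signal of the 27 tested p53 target genes minus each gene's mean over the 8 arrays, in colour limited to 1.5 in either direction, with Klf4 arrays left and control arrays right of the line. Fas and Perp are red on the Klf4 arrays and blue on the control arrays, most other rows are pale, and Klf4 4 and control 5 hold many of the strongest colours elsewhere.

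The other genes of the pathway, on lists chosen with earlier results of these data known, are given by their counts. Of 17 tested genes of the p53 family and its regulators 0 passed with limma (1 with an unadjusted p under 0.05), with a median of -0.02. Of 34 tested further targets 3 rose and 1 fell, which is 8.82% and 2.94%, against 3.20% and 0.467% of all features, with 11 at an unadjusted p under 0.05 and a median of 0.03. Of 14 genes for caspases and the execution of cell death, and of 18 genes for DNA damage and repair, 0 and 0 passed with limma, 1 and 1 had an unadjusted p under 0.05, and the medians were -0.04 and -0.19.

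The further target called with the lowest adjusted p was Cd82, a tetraspanin that restrains cell migration, with 1.81, 1.22, 1.21 and 1.46 on Klf4 replicates 2 to 5, against -0.20, -0.08, 0.04 and -0.74 on control replicates 2 to 5. It rose by 1.67 (SE 0.21, limma adjusted p = 0.00316) and passed in 22 of 22 alternatives. Cdkn1a, which encodes the cell cycle inhibitor best known as a p53 target, had 3.09, 3.17, 2.41 and 3.24 on Klf4 replicates 2 to 5, against 0.88, 1.66, 1.76 and 1.58 on control replicates 2 to 5. It rose by 1.51 (SE 0.25, limma adjusted p = 0.0131), with 1.46 within the first scan and 1.66 within the second. Its call did not hold when Klf4 replicate 2 was left out (adjusted p = 0.0545), within the first scan (0.0928) or with the mean over its probes (0.0729). As with the members that rose, its lowest Klf4 value was that of replicate 4. Bok, a relative of Bax, rose by 0.90 (SE 0.19, limma adjusted p = 0.035), with means of 0.15 ± 0.21 in the Klf4 group and -0.76 ± 0.31 in the control group (SD, n = 4 each). Tp53i13, a p53-inducible gene, fell by 0.70 (SE 0.12, limma adjusted p = 0.0162), with means of -1.77 ± 0.12 in the Klf4 group and -1.07 ± 0.11 in the control group (SD, n = 4 each). Bok passed in 11 of 22 alternatives, and not over spots (adjusted p = 0.0597), with no filter (0.0679), within the first scan (0.119), with slide row as a block (0.054), without both arrays numbered 4 (0.102) or without 6 of the single arrays (0.0557 to 0.123). Tp53i13 passed in 15 of 22, and not with the replicate block (adjusted p = 0.0502), without both arrays numbered 4 (0.0546) or without 5 of the single arrays (0.0507 to 0.0732).

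**Figure D4:**
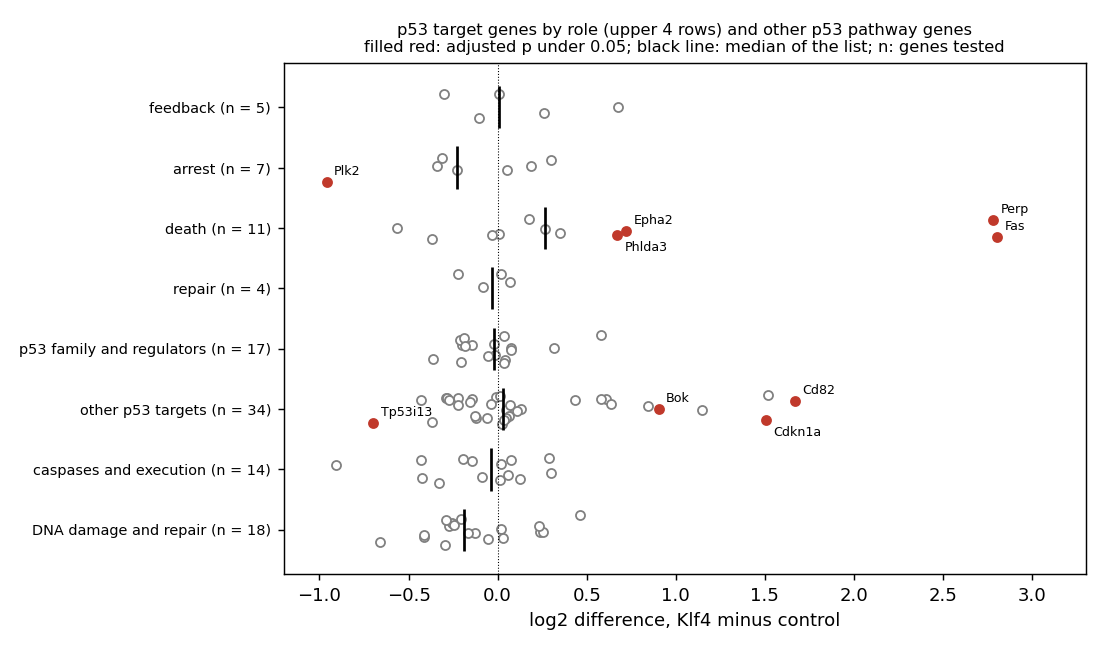
Log2 difference, Klf4 minus control (horizontal axis), of every tested gene of the 4 role groups and of the 4 other p53 pathway lists, with the median of each list as a black line. Filled red points (adjusted p under 0.05) are the 5 members that passed and Cd82, Cdkn1a, Bok and Tp53i13.

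Perp and Epha2 are also genes of epithelial cells, and 4 of 14 tested markers of such cells rose, 10 did not pass, 6 lay below 0 and the median was 0.08. Their summed signal, of 20 listed, was 34.0 to 50.0 on the Klf4 arrays and 7.86 to 12.7 on the control arrays, in units of each array's 75th percentile. Krt19 and Krt15, singled out after their values were seen, made up 27.8 to 40.2 of it on the Klf4 arrays and 3.89 to 6.39 on the control arrays, and the other 12 genes summed to 6.29 to 9.81 on the Klf4 arrays and 3.97 to 6.76 on the control arrays, which overlap. Krt19 (2.69), Krt15 (2.65) and Jup (1.24), the junction protein plakoglobin, rose. Krt8 was 3.20-fold higher with its control level held at the lowest detected signals. It passed the filter through the Klf4 group alone and did not pass under normexp, where its log2 difference was 0.77 (adjusted p = 0.221). Cdh1 (-0.08), Krt5 (-0.20), Dsc2 (-0.08) and Ovol1 (-0.12) did not pass, and the defining marker Epcam was well above background on 1 Klf4 array and 0 control arrays. Of the tested immediate early markers 2 of 11 rose, Atf3 by 2.71 (22 of 22 alternatives) and Nr4a1 by 1.30 (12 of 22, and not with the replicate block, adjusted p = 0.0859, or within the first scan, 0.132), and the list's sum was 35.0 to 57.1 on the Klf4 arrays and 36.0 to 43.1 on the control arrays. The 5 tested pericyte and fibroblast markers of 8 listed summed to 9.70 to 12.2 on the Klf4 arrays and 5.92 to 8.49 on the control arrays, with Lum above background on 0 arrays. Col1a1 rose by 1.36, and the 4 others, none past the threshold, lay below 0 (Pdgfrb -0.86, Col1a2 -0.47, Col3a1 -0.17 and Acta2 -0.11). Their sum without Col1a1 was 3.02 to 5.55 on the Klf4 arrays and 3.52 to 5.77 on the control arrays. The sums of the 8 tested microglia markers (5.46 to 6.40 with Klf4, 4.52 to 6.13 in controls) and of the 6 tested endothelial markers (87.9 to 156 with Klf4, 94.3 to 114 in controls) overlapped, although C1qb rose by 1.04 (16 of 22 alternatives) and Tek by 2.38. C1qb was the only microglia marker that passed. The other 7 did not, and of the 8 tested 5 lay above 0 and 3 below it (Cx3cr1 -0.23, P2ry12 -0.03 and Csf1r -0.001), with a median of 0.16. Ptprc was above background on 0 arrays. The endothelial sum was carried by Kdr (mean 6.70 with Klf4, 6.68 in controls), so its overlap says little of the other genes. Kdr (0.03), Eng (0.03), Cdh5 (-0.01) and Flt1 (-0.02) did not pass. Esam was 3.90-fold higher with its control level held at the lowest detected signals. It passed the filter through the Klf4 group alone and did not pass under normexp, where its log2 difference was 1.02 (adjusted p = 0.0878), or within the first scan (0.0835). Only 1 of 8 pigment epithelium markers could be tested, and Tyr and Tyrp1 were above background on 0 arrays. Of the 12 retina markers Rbp3 fell by 1.10 (18 of 22 alternatives), Crx fell by 0.84 (11 of 22) and Elavl3 rose by 1.09 (12 of 22). The list's sum was 176, 177, 283 and 154 on Klf4 replicates 2, 3, 4 and 5, against 224 to 259 on the control arrays. Klf4 replicate 4, an array outside the quality limits, lay above every control array, and the other Klf4 arrays lay below every control array. This sum was carried by Otx2, which did not pass (mean 6.83 with Klf4, 7.27 in controls), so it says little of the other genes. Crx and Elavl3 did not pass with the replicate block (adjusted p = 0.061 and 0.0513) or within the first scan (0.0748 and 0.132). The part of any of these lists in the values of the p53 targets was not tested.

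**Figure D5:**
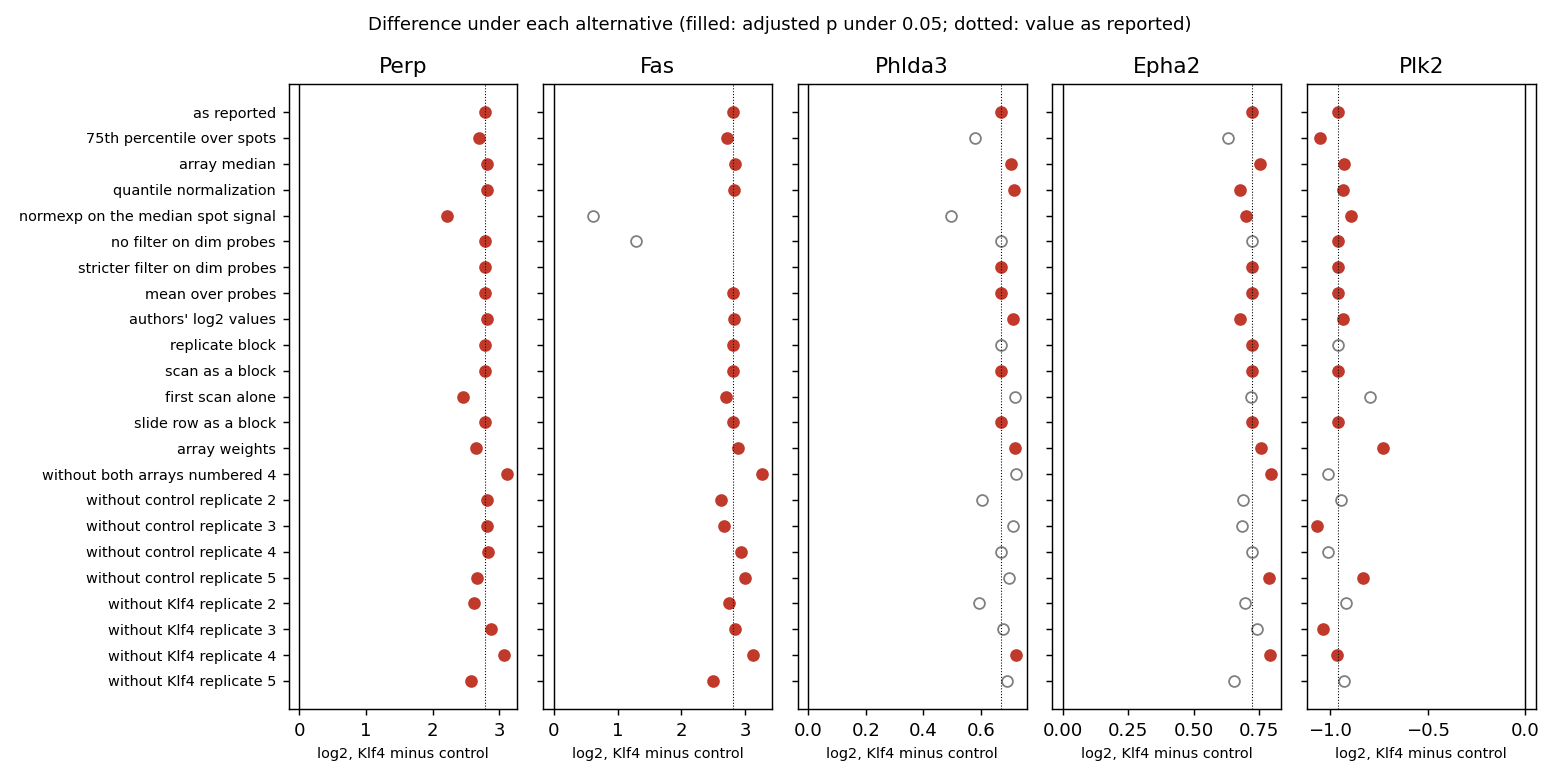
Log2 difference, Klf4 minus control (horizontal axes), of Perp, Fas, Phlda3, Epha2 and Plk2 as reported (top row, dotted line) and under each alternative setting, filled red where the adjusted p was under 0.05. Perp is filled in every row, Fas is open in 2 rows, and Phlda3, Epha2 and Plk2 are open in several; Fas has no value under the stricter filter.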

How the data were processed

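Cy3-labelled RNA was hybridised to single-colour Agilent arrays designed on build rn4, and spots were read with Feature Extraction 10.7.3.1, per the file headers and the labels. As deposited, the intensity values had been corrected for background and spatial trend, with no scaling between arrays, and the deposited flags, unit other, are its control, background, saturation and outlier marks. The authors also deposited log2 values whose making the labels do not describe. Each of that table's columns had a median of 7.54 and was most like its own array (Pearson's r over probes 0.994 to 1.00), so the values are log2 signals with equal scaling, uncentred by gene and of the same direction.

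Control and outlier spots were left out (324 to 421 gene spots an array), log2 signals were averaged per probe and each array's 75th percentile over probes was subtracted. A probe counted as well above background where 50% or more of its spots were. No spot was saturated. Of 45598 gene probes, 21109 were named through accessions of the RefSeq table for GRCr8 and 24489 had no symbol. The kept probe with the highest mean stood for a gene, and 29988 genes and unnamed features were tested. The number of arrays limits the precision. Groups were compared with limma 3.58.1 in R 4.3.3 (lmFit and eBayes, two-sided, no covariates), which was tested on simulated data. Other kept probes of a gene are given where signs differ or values lie over 1 apart, and for Fas and Mdm4. For a gene that no array of a group detected, the level there was held at a floor: per array, its lowest detected signal or the probe's own value, whichever was greater, then averaged. Folds against this floor are not strict minima. The members and lists were chosen with earlier results of these data known. Values on every array are given for members past the threshold and for the 2 in each role with the lowest p among the others, and list genes past it are named, at most 6 a list. Alternatives changed the scaling, background correction, filter, probe choice, value source, blocks, array weights and arrays used. The files hold no mean spot signal, so normexp (offset 50) was run on the median spot signal. Same-numbered arrays had correlated deviations from their group means of 0.061 (replicate 4) to 0.551 (replicate 5), and replicate 4 fell short of 0.1, so the numbers were not taken to pair the samples. For Klf4 replicates 2, 3 and 5 the same-numbered control was the best match (0.355, 0.243 and 0.551). For Klf4 replicate 4 it was control replicate 3 (0.123). Pairing by number is thus not excluded, and the fit with the replicate block is given beside the main one. One gene of the pathway lists is not reported here by name. Figures were drawn with matplotlib 3.10.9.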

Additional observations from a re-analysis of the deposited data

Results flagged for a closer look

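Of 90 groups of 4 arrays checked (45 genes, 2 groups each), 6 held an array whose gap to the nearest of the others was above Dixon's 95% critical value; chance alone gives about 1 in 20. Tp53inp1 was at -1.68 on Klf4 replicate 4, below the other Klf4 arrays at -1.36 to -1.31. Perp was at -3.67 on control replicate 5, below the other controls at -3.23 to -3.17, which widens its difference in the second scan. Mdm4 was at 4.62 on control replicate 5, above the other controls, which all lay at 4.42. Among the genes outside the members, Elavl3 was at 1.76 on Klf4 replicate 5 (1.26 to 1.33 on the others), Crx at 0.89 on control replicate 3 (1.22 to 1.26) and Tek at -3.07 on control replicate 5 (-2.47 to -2.44). Of the 6 arrays so marked, 4 were those numbered 5, from the second scan.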

How the results depend on the processing

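The count of 4 members higher fell to 2 with the 75th percentile taken over spots (an alternative chosen after seeing the data), with normexp on the median spot signal and in the first scan alone, to 1 with no filter on dim probes, and lay between 2 and 4 with single arrays left out; Perp passed in all of these. The count of 1 member lower fell to 0 with the replicate number as a block, within the first scan and on leaving out both arrays numbered 4 (Plk2, limma adjusted p = 0.077, 0.0748 and 0.0724, with 3, 3 and 4 members lower at an unadjusted p under 0.05), and lay between 0 and 1 with single arrays left out. Over all features the 961 higher and 140 lower became 1867 and 1318 with array weights (58.6% higher, against 87.3%), 1147 and 255 with scan as block, 635 and 48 in the first scan alone, 747 and 70 with no filter and 604 to 1221 and 32 to 406 with single arrays left out (650 and 32 without control replicate 2, 1221 and 406 without Klf4 replicate 4); the percentile over spots gave 734 and 197. The replicate block left Perp, Fas and Epha2 called and also lost Phlda3 (adjusted p = 0.0976). The replicate numbers were not taken to pair the samples, but the check used does not exclude it. Of the 22 members not past the threshold, only Ccng1 passed in an alternative. Signs turned only for 6 of these, with small values and adjusted p of at least 0.414: Mdm2 (-0.083 over spots, -0.025 with quantile normalization, -0.026 with the authors' log2 values, -0.059 with array weights, -0.14 without both arrays numbered 4, -0.14 to 0.10 with single arrays left out), Btg2 (-0.036 over spots, -0.16 with array weights, -0.12 without both arrays numbered 4, -0.17 to 0.19), Bax (-0.081 over spots, -0.040 with quantile normalization, -0.010 with normexp, -0.039 with the authors' values, -0.15 with array weights, -0.092 without both arrays numbered 4, -0.090 to 0.13), Fdxr (0.0022 with the array median, 0.023 in the first scan alone, -0.12 to 0.088), Rrm2b (-0.022 over spots, -0.074 with normexp, -0.25 to 0.49, and 0.83 with array weights) and Polk (-0.072 over spots, -0.0053 with quantile normalization, -0.006 with the authors' values, -0.015 in the first scan alone, -0.072 with array weights, -0.068 to 0.075). The causes were not tested. Dim signal limits Fas, Pmaip1 and Rrm2b.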
